A study of Mus musculus with 6 samples.

Results

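The nuclear genes that encode subunits of the mitochondrial respiratory chain and ATP synthase were compared between the gastrocnemius muscles of C26-xenografted and control mice. They were chosen by symbol: rows whose Entrez gene ID belongs to a mouse gene named Nduf (series a, b, c, s and v), Sdha to Sdhd, Uqcr, Cyc1, Cox4 to Cox8 or Atp5. The rule found 85 of the 13363 listed genes, of which 39 belong to complex I, 4 to complex II, 9 to complex III, 16 to complex IV and 17 to complex V (ATP synthase). Of the 88 protein-coding mouse genes with such symbols in RefSeq, Cox7b2, Ndufb1 and Cox8c had no row. Ndufa4 was counted with complex I by its symbol, although its protein is now assigned to complex IV. The mitochondrially encoded subunits were not analysed here, since 0 of them were found by symbol among the listed genes.

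Muscle RNA was sequenced in 3 samples from mice with C26 tumors and 3 from controls, all male Balb/c. C26 is a mouse colon adenocarcinoma line whose subcutaneous tumors cause wasting. It was injected into the flank of the C26 group, and the controls were not inoculated. The study's text gives an age and a day after inoculation for its mice, but the labels give neither for these samples. The samples carry replicate numbers 1 to 3 in each group. Neither the labels nor the methods say that each sample is a mouse of its own, so p-values measure only the spread between these samples, which may be technical. Where single muscles are counted below, the word stands for these samples.

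The respiratory chain passes electrons from NADH (complex I) and succinate (complex II) through ubiquinone, complex III and cytochrome c to oxygen at complex IV. Complexes I, III and IV pump protons, and complex V uses the gradient to make ATP. Several subunits of complexes IV and V come in isoforms, some made mostly in heart and skeletal muscle and others in most tissues, and oxidative fibers hold more mitochondria than fast glycolytic fibers.

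All values below are TPM, per-length shares of a sample's summed expression, scaled by TMM factors that correct for composition. Differences are log2 fold changes, C26 over Control, on the log2(TPM + 1) scale, which understates changes of genes with low levels. A gene was called changed at a Benjamini-Hochberg adjusted p under 0.05 in limma, fitted over all listed genes. The atrophy ligases marked the groups as labelled. Trim63 stood at 7352, 5410 and 4891 TPM in C26 replicates 1, 2 and 3 against 201, 252 and 161 in the controls. Muscle genes dominated all samples, with Ckm at 23978 TPM or more in each, although the labels' extraction protocol also names infected THP-1 cells, a human monocyte line. The libraries were not alike within groups. Across all genes C26 replicates 1 and 2 correlated at 0.989, while replicate 3 correlated with them at 0.975 and 0.967, and Control replicate 3 correlated with the other controls at 0.949 and 0.944. Results are therefore given with and without C26 replicate 3, where it changes them.

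With all 6 samples few subunit genes passed the test. 4 of the 85 genes were lower in C26 muscle (Cox6a1, Ndufv3, Ndufa4l2 and Ndufc2) and 3 were higher (Atp5g2, Cox7a2l and Cox6b2). These 7 genes are 8.24% of the 85, whereas 33.6% of all listed genes were called, 17.9% higher and 15.7% lower. None of the 85 passed 4-fold, the fold the study used, against 1.58% of all genes higher and 1.83% lower. The limma test gave an unadjusted p under 0.05 for 9 of the 85, and for 47.1% of all genes. The median log2 fold change of the 85 was -0.20, beside -0.08 over all genes, and 58 of them had a negative value. Among the 1002 other listed genes with a mean of at least 100 TPM the median was 0.36, with 334 called higher and 94 lower (42.7% in all).

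The split between higher and lower calls moved with the scaling. On FPKM as deposited 7 of the 85 genes were lower and 1 higher. Quantile normalization gave 11 lower and 1 higher, and scaling without the 20 most abundant genes, chosen after seeing the data, gave 8 lower and 1 higher. Over all genes the split was 2393 higher and 2095 lower in the main fit, 1678 and 2504 on FPKM, and 1542 and 3209 without the 20 most abundant genes. Quantile normalization moved it the other way, to 2243 higher and 1576 lower, with a median of 0.02 over all genes and -0.51 over the 85. Scaling without the 20 most abundant genes moved the median of all genes from -0.08 to -0.23, and the median of the 85 genes to -0.46. In each of these settings the median of the 85 lay below that of all genes.

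**Figure D1:**
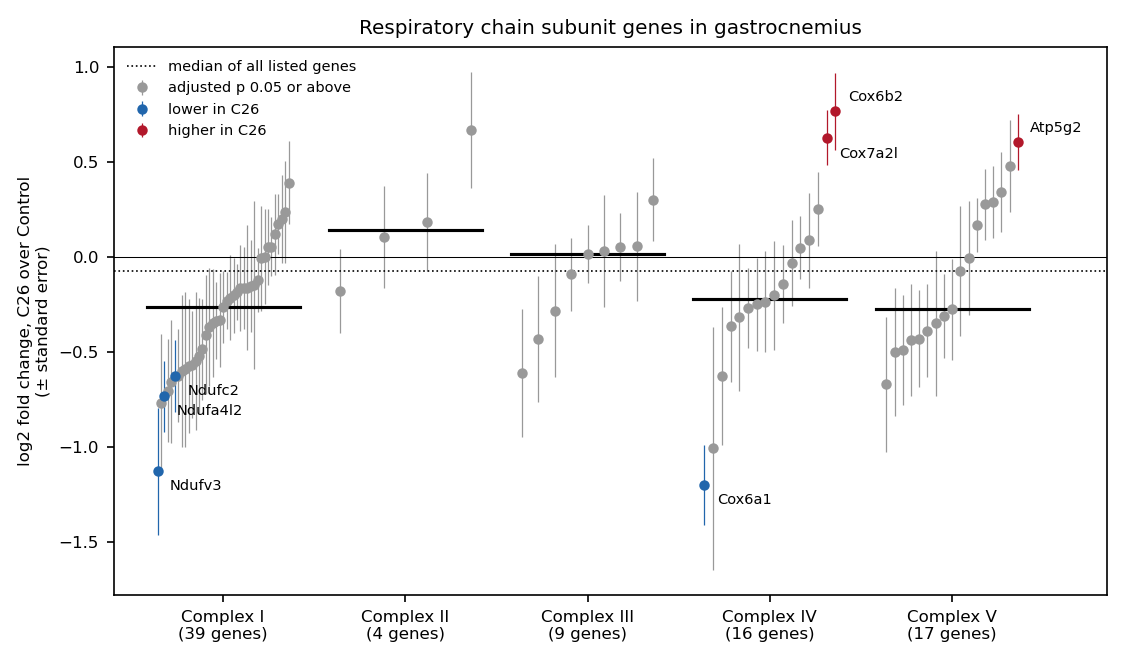
Log2 fold change (C26 over Control, ± standard error, y axis) of each of the 85 subunit genes, grouped by complex (x axis) and sorted within it. Black bars are the medians of each complex, and the 4 blue and 3 red points are the genes with an adjusted p under 0.05 in limma.

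The most evident feature of these genes was a split within the C26 group. C26 replicates 1 and 2 both lay below every control for 56 of the 85 genes, beside 37.6% of all genes. C26 replicates 1 and 2 lay below every control while replicate 3 did not in 51 of the 85, beside 9.16% of all genes. In 40 of the 85 replicate 3 was then above every control (2.68% of all genes), and in 11 it was within the control range (6.48%). All 3 C26 muscles lay outside the control range on the same side for 8 of the 85 genes, 5 lower and 3 higher in C26, beside 53.9% of all genes, 28.5% lower and 25.4% higher. C26 replicate 3 exceeded both other C26 muscles in 79 of the 85 genes, beside 40.4% of all genes, and lay below both in 5 genes (Ndufs3, Cox8a, Cox7a2l, Cox6b2 and Atp5g2). The median deviation of the 85 genes from the control mean was -0.41 and -0.48 in C26 replicates 1 and 2 and 0.30 in replicate 3, on the log2 scale. The 85 genes together took 5.84%, 5.72% and 8.25% of the summed TPM in C26 replicates 1, 2 and 3, and 6.63%, 7.44% and 6.60% in the controls. C26 replicate 3 thus had the highest share of the 6 muscles and the other two C26 muscles the lowest. These shares do not depend on the TMM factors. The counts and deviations do, and the factors of 1.08, 1.10 and 0.914 in C26 replicates 1, 2 and 3 raise replicate 3 against the others. They were not repeated under other scalings. On FPKM, replicate 3 of Ndufa13 (642.73) lay within the controls (578.16 to 665.95), while that of Cox7a1 (856.59) stayed above them (660.58 to 753.31).

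Without C26 replicate 3, limma called 37 of the 85 genes lower and 3 higher, where 17.3% of all genes were lower and 22.9% higher. The 7 genes called with all samples were among these 40. The median of the 85 was then -0.40, beside -0.06 over all genes. The median was -0.10 without C26 replicate 1, -0.09 without C26 replicate 2 and -0.12 without Control replicate 2, with all genes at -0.06, -0.07 and -0.08. Without Control replicate 3, the other library that stood apart, 2 genes were lower and 2 higher.

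Of the 7 called genes, Cox6a1 kept its call with any single muscle left out, at -1.03 to -1.38 (largest adjusted p = 0.0456, limma). The 6 others kept theirs without C26 replicate 3 but lost them, with the same sign, without some other muscle. Without C26 replicate 1, C26 replicate 2 or Control replicate 1 all 6 were lost: Ndufv3 was then at -0.99, -0.88 and -1.13, Ndufa4l2 at -0.65, -0.64 and -0.67, and Ndufc2 at -0.59, -0.50 and -0.65. Cox7a2l was at 0.62, 0.56 and 0.56, Cox6b2 at 0.66, 0.75 and 0.71, and Atp5g2 at 0.59, 0.55 and 0.61. Without Control replicate 2 the lower genes Ndufv3 (-1.13), Ndufa4l2 (-0.76) and Ndufc2 (-0.56) were not called, and without Control replicate 3 Ndufv3 (-1.13), Ndufc2 (-0.68) and Cox6b2 (0.65) were not.

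**Figure D2:**
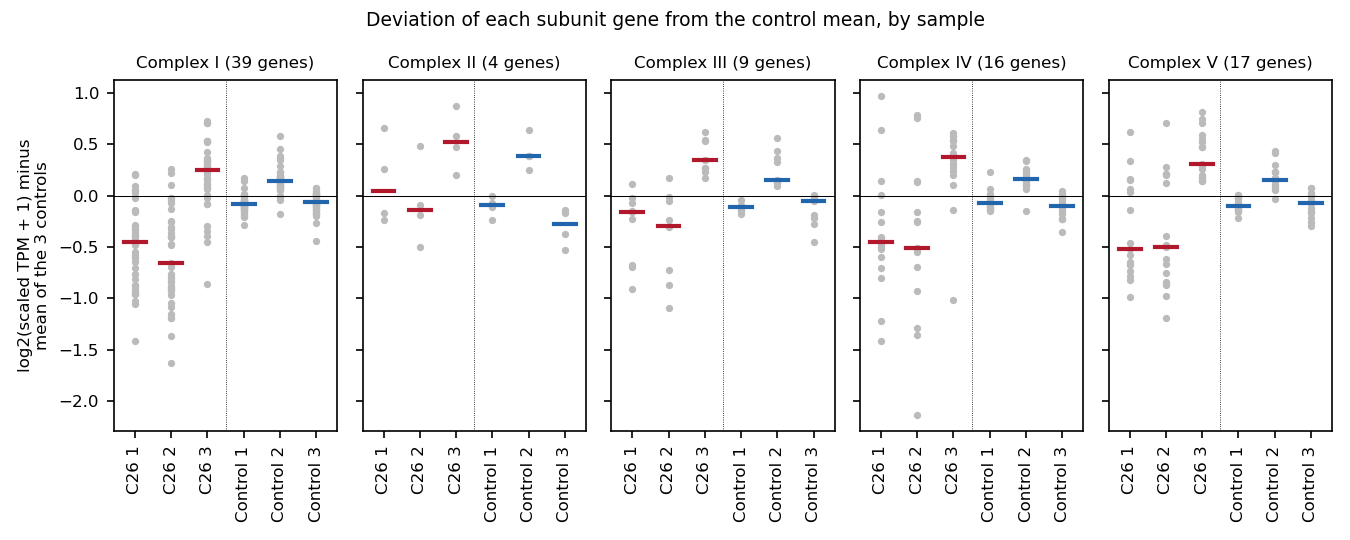
Deviation of log2(scaled TPM + 1) from the mean of the 3 controls (y axis) in each sample (x axis), with 1 grey point per gene and a bar at the median, red for C26 and blue for Control. In complexes I, III, IV and V the medians of C26 replicates 1 and 2 lie below 0 and that of C26 replicate 3 above it.

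Some fiber type markers were also unequal within the C26 group. The 10 slow and oxidative fiber markers summed to 951 and 397 TPM in C26 replicates 1 and 2, to 10814 in replicate 3 and to 1841, 3367 and 1880 in the controls. Mb, the oxygen store myoglobin of oxidative fibers, was at 478, 124 and 9173 TPM in C26 muscle, and 886, 2682 and 1307 in the controls. Myh2, the myosin of fast oxidative fibers, stood at 709 TPM in C26 replicate 3 and between 114 and 365 in the 5 other muscles. 0 of these 10 markers passed the limma test with all samples (1 at an unadjusted p under 0.05), 2 were lower without C26 replicate 3, and none was at 0. C26 replicates 1 and 2 lay below every control in 3 of the 10, beside 37.6% of all genes. Summed TPM of the 10 fast fiber markers was 155344, 123425 and 203903 in C26 muscle, and 239159, 255711 and 233855 in the controls, with 2 of 10 lower (Mylpf and Pvalb), and 3 without C26 replicate 3. In 6 of these 10 C26 replicates 1 and 2 lay below every control (37.6% of all genes), and replicate 3 lay below them too in all 6 (28.5%). It still exceeded both other C26 muscles in 8 of the 10, beside 40.4% of all genes. Myh1, a fast myosin, was 520, 426 and 4778 TPM in C26 muscle against 142, 565 and 174. The part of fiber type composition in the subunit results was not tested, and in these bulk samples a smaller share of a fiber type cannot be told apart from less RNA per fiber.

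Other cell types were also unequal between the muscles. Fat cell markers were lower in C26 muscle for 6 of 8 genes, with sums from 484 to 687 TPM in C26 and 6435, 3588 and 808 in Control replicates 1, 2 and 3. The brown fat list had 4 of 6 genes listed, of which Cpt1b was higher and 0 were lower, and its defining genes Ucp1 and Elovl3 had no row. Cox8b, one of the subunit genes, is also on that list and made up most of its sum. Fibroblast markers were lower for 3 of 5 genes (sums 262 to 355 TPM in C26, 465 to 573 in Control) and endothelial markers for 2 of 5 (63 to 66 and 77 to 95 TPM). Red blood cell markers were higher for 3 of 3 listed genes (614 to 1280 TPM and 284 to 444). Immune cell markers, 5 of 7 listed, gave 0 calls in limma (3 at an unadjusted p under 0.05), with a sum of 2042 TPM in Control replicate 3 and 75 to 480.2 in the other muscles. The 2 listed genes of neurons and Schwann cells gave 0 calls (1 at an unadjusted p under 0.05) and sums of 9.94 to 78.2 TPM. Without C26 replicate 3 the lower genes were 3 of the fat, 1 of the brown fat, 1 of the endothelial and 3 of the fibroblast markers. The higher genes were then 3 of the red blood cell, 1 of the brown fat and 1 of the immune markers. The part of these cells in the subunit results was not tested.

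Complex I, the NADH dehydrogenase, had 31 negative values among 39 genes and a median of -0.26, or -0.46 without C26 replicate 3. 3 of the 39 were lower and 0 higher in limma with all samples, and 18 were lower without C26 replicate 3. Ndufv3, an accessory subunit of the NADH-oxidizing module, had the largest negative value of the complex. Its levels were 222, 191 and 467 TPM in C26 replicates 1 to 3 and 596, 591 and 592 in the controls. All 3 C26 muscles lay below all controls, and replicate 3 lay closest to them. The log2 fold change of Ndufv3 was -1.13 ± 0.33 (SE), with an adjusted p of 0.0421 in limma, and -1.45 without C26 replicate 3.

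Ndufc2, an accessory subunit of the membrane arm, was 225, 200 and 301 TPM in C26 and 356, 409 and 345 in Control muscle, so the groups did not overlap. Its log2 fold change was -0.63 ± 0.19 (adjusted p = 0.0446, limma), a call that was lost with a pseudocount of 0.1 (-0.63). Ndufc1, its neighbor in the membrane arm, had levels of 399, 424 and 783 TPM against 815, 823 and 855. The groups of Ndufc1 did not overlap either, but its adjusted p in limma was 0.0863, at a log2 fold change of -0.70. Without C26 replicate 3 it was called lower, at -0.94.

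Ndufa4 was the most abundant gene of the complex I list, at 1445, 1308 and 2863 TPM in C26 and 2202, 2554 and 2077 in Control muscle. C26 replicates 1 and 2 were below all controls and replicate 3 above them, and Ndufa4 was not called (-0.37 ± 0.31, adjusted p = 0.378, limma). Ndufa4l2, its hypoxia-responsive paralog, was expressed at far lower levels. It stood at 7.04, 6.97 and 10.5 TPM in C26 and 15.6, 13.6 and 13.0 in Control muscle, with no overlap. Ndufa4l2 was lower by -0.74 ± 0.19 on the log2 scale, with an adjusted p of 0.0272 in limma.

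The 7 core subunits of complex I among these genes, which bind the flavin and the iron-sulfur clusters, had a median log2 fold change of -0.01, and 0 were called in limma (0 at an unadjusted p under 0.05). The other 32 genes of the complex I list, Ndufa4 and Ndufa4l2 included, had a median of -0.34, and 27 of them were negative. Without C26 replicate 3, 1 of the 7 core genes (Ndufs8) and 17 of the 32 others were lower, with medians of 0.02 and -0.51. This division was made after the values were seen, and the difference between the core and the other genes was not tested. Ndufs3 was unlike most, since C26 replicate 3 had the lowest level of all muscles, 156 TPM, with 176 to 293 in the others.

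Complex II, succinate dehydrogenase, is encoded by nuclear genes alone. 0 of its 4 genes were called with limma, either with all samples (0 at an unadjusted p under 0.05) or without C26 replicate 3. Sdha, the flavoprotein that oxidizes succinate, was 374, 332 and 434 TPM in C26 and 220, 370 and 164 in Control muscle. 2 of the 3 C26 muscles were above all controls, and the log2 fold change was 0.67 ± 0.30 (adjusted p = 0.132, limma). Sdhb, the iron-sulfur subunit and the most abundant of the 4, was 469, 497 and 789 TPM against 447, 692 and 479. The membrane anchor Sdhc was 358, 298 and 487 TPM against 403, 502 and 375. Its partner Sdhd was 250, 183 and 290 TPM against 207, 272 and 161. In all 4 genes C26 replicate 3 was the highest of the C26 muscles and Control replicate 2 the highest of the controls. The median of the 4 genes was 0.14, or 0.03 without C26 replicate 3, and it fell below 0 on FPKM (-0.02), under quantile normalization (-0.19) and without the 20 most abundant genes (-0.11).

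Complex III, the cytochrome bc1 complex, likewise had 0 calls among 9 genes in limma (0 at an unadjusted p under 0.05), and 3 lower genes without C26 replicate 3 (Uqcr11, Cyc1 and Uqcrq). Its median of 0.02 was negative without C26 replicate 3 (-0.11), on FPKM (-0.15), under quantile normalization (-0.32) and without the 20 most abundant genes (-0.24). Uqcrb, a ubiquinone-binding subunit, was the most abundant at 1268, 1355 and 1789 TPM in C26 and 1277, 1555 and 1392 in Control muscle. The groups overlapped (0.05 ± 0.18). Cyc1, the cytochrome c1 that hands electrons to cytochrome c, was 326, 288 and 633 TPM against 466, 681 and 463, and was at -0.43 with all samples and -0.71 without C26 replicate 3. Uqcrfs1, the Rieske iron-sulfur protein, was 521, 541 and 742 TPM against 445, 606 and 414, at 0.30 ± 0.22 (adjusted p = 0.308, limma).

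Complex IV, cytochrome c oxidase, held calls in both directions. Of 16 genes 1 was lower and 2 were higher, the median was -0.22, and without C26 replicate 3 there were 7 lower and 2 higher at a median of -0.42. The gene with the largest negative value among all 85 was Cox6a1, the isoform of subunit VIa made in most tissues. It stood at 126, 115 and 146 TPM in C26 muscle, and 298, 375 and 231 in the controls, with C26 replicate 3 near the other C26 muscles. Its log2 fold change was -1.20 ± 0.21 with an adjusted p of 0.00983 in limma, and -1.22 without C26 replicate 3.

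Cox6a2, the heart and skeletal muscle isoform of the same subunit, was the most abundant gene of complex IV. It was 2224, 2415 and 3381 TPM in C26 and 2030, 2431 and 2189 in Control muscle, and was not called (0.25 ± 0.20, adjusted p = 0.346, limma). The ratio of Cox6a2 to Cox6a1 was 17.6, 21.1 and 23.2 in C26 muscle, and 6.80, 6.48 and 9.48 in the controls. The ratio was therefore higher in every C26 muscle than in every control, by 1.45 on the log2 scale. The two-sided exact permutation test gave p = 0.1, the smallest that 3 against 3 samples allow, and 0.2 after adjustment over the 8 isoform pairs compared.

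Among the other isoforms of complex IV, the muscle forms Cox7a1 and Cox8b followed the split within the C26 group. Cox7a1 was 416, 251 and 1602 TPM in C26 and 1012, 1287 and 1051 in Control muscle, which placed C26 replicate 3 above and the other two C26 muscles below all controls. It was at -1.01 ± 0.64 (adjusted p = 0.254, limma), and without C26 replicate 3 at -1.70 (adjusted p = 0.00669, limma). Cox8b was 1526, 1088 and 3058 TPM against 2552, 2782 and 2636, at -0.63 with all samples and -0.97 without C26 replicate 3. The forms made in most tissues varied less. Cox7a2 was 290, 322 and 456 TPM against 389, 426 and 348, and Cox8a was 348, 346 and 285 TPM against 329, 352 and 267.

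The ratio of Cox7a1 to Cox7a2 was 1.43, 0.78 and 3.51 in C26 muscles and 2.60, 3.02 and 3.02 in the controls (exact permutation p = 0.4, 0.4 adjusted). That of Cox8b to Cox8a was 4.39, 3.15 and 10.7 against 7.75, 7.89 and 9.87 (exact permutation p = 0.4, 0.4 adjusted). In both pairs C26 replicate 3 had the highest ratio of the 6 muscles and the other two C26 muscles the lowest.

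Cox7a2l, reported to link complexes III and IV in supercomplexes, a role not examined in these mice, went against most of complex IV. It was 332, 360 and 297 TPM in C26 and 192, 228 and 218 in Control muscle, with no overlap between groups and with C26 replicate 3 the lowest of its group. The log2 fold change was 0.63 ± 0.14, with an adjusted p of 0.0201 in limma, and 0.77 without C26 replicate 3. It did not pass on FPKM (0.46), under quantile normalization (0.25) or without the 20 most abundant genes (0.38). Of the 50-base windows of its transcripts, 17.8% also occur in another gene's transcripts, so some of its reads cannot be placed with certainty.

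Cox6b2, the testis isoform of subunit VIb, was at 1.93, 1.57 and 1.18 TPM in C26 and 0.38, 0.89 and 0.28 in Control muscle, the lowest level of the 85 genes. The groups did not overlap, and the value was 0.77 ± 0.20 (adjusted p = 0.0304, limma). Cox6b1, the form of most tissues, was 1299, 1308 and 2078 TPM against 1459, 1820 and 1424, so Cox6b2 was a very small part of the subunit's RNA in every muscle. The log2 ratio of Cox6b2 to Cox6b1 was higher in C26 by 0.80 (exact permutation p = 0.1, 0.2 adjusted), and by 1.56 with a pseudocount of 0.1. Cox4i2, the hypoxia-responsive form of subunit IV, was 3.63, 3.30 and 5.61 TPM against 6.19, 4.53 and 4.81. Cox4i1, the main form, was 1995, 2001 and 3345 TPM against 2125, 2661 and 1974, and the log2 ratio of these forms differed by -0.36 (exact permutation p = 0.3, 0.4 adjusted), and by 0.022 in the other direction under quantile normalization.

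**Figure D3:**
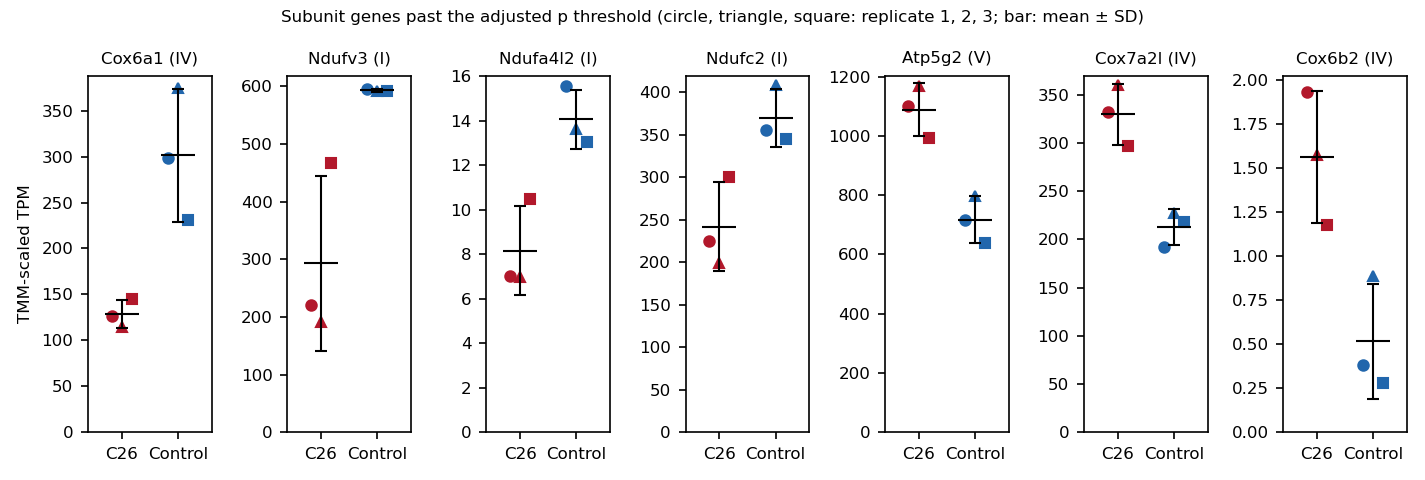
TMM-scaled TPM (y axis, from 0) of the 7 subunit genes with an adjusted p under 0.05, in C26 (red) and Control (blue) muscle, with the complex in parentheses. In each gene the C26 and Control points do not overlap, and C26 replicate 3 (red square) is the C26 point nearest to the controls.

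Complex V, ATP synthase, had a median of -0.28 and 11 negative values among 17 genes. 1 gene was higher and 0 lower with all samples in limma (1 at an unadjusted p under 0.05), and 9 were lower and 1 higher without C26 replicate 3, where the median was -0.47. The 5 genes of the catalytic F1 head (Atp5a1, Atp5b, Atp5c1, Atp5d and Atp5e) had a median of 0.17, and the other 12, of the membrane sector, stalk and dimer contacts, a median of -0.33. These medians were 0.20 and -0.54 without C26 replicate 3. This division too was made after the values were seen and was not tested. Atp5b, the catalytic beta subunit, was the most abundant of the 85 genes. It was 2886, 2778 and 4027 TPM in C26 and 2054, 3041 and 1907 in Control muscle, at 0.48 ± 0.24 (adjusted p = 0.164, limma). Atp5k, subunit e at the dimer contact, was 432, 375 and 970 TPM against 844, 920 and 818, at -0.67 with all samples and -1.02 without C26 replicate 3.

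Subunit c, of which the rotor ring is made, is encoded by 3 genes that give the same mature protein and differ in their import sequences. Atp5g2 was 1101, 1169 and 993 TPM in C26 and 718, 796 and 639 in Control muscle, and every C26 muscle was above every control. It was higher by 0.60 ± 0.15 (adjusted p = 0.0240, limma), and by 0.74 without C26 replicate 3. The call was lost on FPKM (0.44), under quantile normalization (0.36) and without the 20 most abundant genes (0.35). Of its 50-base windows 38.3% are shared with other genes' transcripts. Atp5g3 was 979, 868 and 1795 TPM against 1485, 1832 and 1389, and Atp5g1 was 497, 488 and 1118 TPM against 612, 803 and 648. Both were below all controls in C26 replicates 1 and 2, and neither was called with all samples.

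The ratio of Atp5g2 to Atp5g3 was 1.12, 1.35 and 0.55 in C26 muscle and 0.48, 0.43 and 0.46 in the controls, a log2 difference of 1.04 (exact permutation p = 0.1, 0.2 adjusted). Atp5g2 thus had the higher level of the pair in C26 replicates 1 and 2, and Atp5g3 in the other muscles. The ratio of Atp5g1 to Atp5g3 was 0.51, 0.56 and 0.62 against 0.41, 0.44 and 0.47, a difference of 0.36 (exact permutation p = 0.1, 0.2 adjusted). Ndufa4l2 and Ndufa4, the remaining pair, differed in log2 ratio by -0.37 (exact permutation p = 0.2, 0.32 adjusted).

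**Figure D4:**
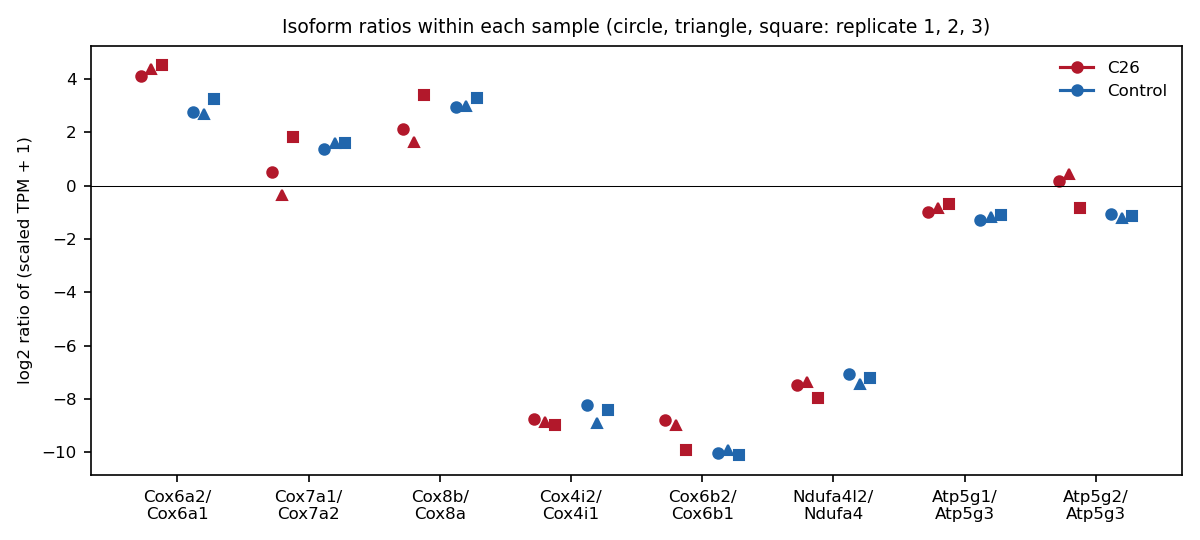
Log2 ratio of (scaled TPM + 1) of 8 pairs of isoform genes within each sample (y axis), C26 in red and Control in blue. The groups are apart for Cox6a2/Cox6a1, Cox6b2/Cox6b1, Atp5g1/Atp5g3 and Atp5g2/Atp5g3, and C26 replicate 3 (red square) lies with or above the controls for Cox7a1/Cox7a2 and Cox8b/Cox8a.

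The promoters of Cox6a1 and Atp5g2, which were called in opposite directions, are shown because both hold a palindrome, the half-site GCGCA joined to its reverse complement, which is a binding motif of Nrf1, a transcription factor of respiratory chain genes. Each line gives the 250 bases before the start site on the gene's own strand, 5′ to 3′, from RefSeq on GRCm38.p6, at chr5:115348959-115349208 (minus strand) for Cox6a1 and chr15:102671048-102671297 (minus strand) for Atp5g2. Capitals mark the Nrf1 palindrome and, in Cox6a1, CTTCCGG, the reverse complement of the ETS motif CCGGAAG that Gabpa binds.
Cox6a1: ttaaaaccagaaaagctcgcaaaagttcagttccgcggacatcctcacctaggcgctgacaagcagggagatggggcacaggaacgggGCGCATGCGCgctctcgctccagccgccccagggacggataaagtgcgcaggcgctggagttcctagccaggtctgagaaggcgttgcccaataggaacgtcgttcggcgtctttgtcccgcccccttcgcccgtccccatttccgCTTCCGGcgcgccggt
Atp5g2: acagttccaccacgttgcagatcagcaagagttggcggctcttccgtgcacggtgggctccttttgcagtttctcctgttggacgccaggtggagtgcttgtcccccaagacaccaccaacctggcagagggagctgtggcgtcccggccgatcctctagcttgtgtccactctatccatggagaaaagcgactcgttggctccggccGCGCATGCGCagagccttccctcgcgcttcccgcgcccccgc

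The palindrome began 162 bases before the start of Cox6a1 and 42 bases before that of Atp5g2, and the ETS motif 16 bases before that of Cox6a1. Of the 85 genes, 68 had a promoter in the table, and the palindrome was found in 4 of them (Cox6a1, Atp5g2, Atp5k and Ndufa11), or 5.88%, beside 0.877% of all 27025 genes with a promoter. On either strand the ETS motif was in 12 of the 68 (17.6%, beside 7.83% of all), AAGGTCA, bound by estrogen-related receptors, in 5 (7.35% and 4.70%), ATGGCGG, bound by Yy1, in 4 (5.88% and 2.58%) and the cyclic AMP response element TGACGTCA in 4 (5.88% and 1.77%). Among the 10600 listed genes with a promoter in the table these shares were 1.79% for the palindrome, 14.8% for the ETS motif, 3.51% for AAGGTCA, 4.27% for ATGGCGG and 2.84% for TGACGTCA. A motif here is a match of letters and not a site of binding.

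Of the 30 genes called in the lists that follow, all kept their call without C26 replicate 3, and 10 kept it with any single muscle left out (Ppargc1a, Gabpa, Ppard, Pprc1, Yy1, Ndufaf4, Coa4, Coa6, Surf1 and Etfa). The fewest, 10, were kept without Control replicate 1, with 11 without C26 replicate 1, 15 without C26 replicate 2, 20 without Control replicate 2 and 18 without Control replicate 3.

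Factors that drive these genes changed in both directions. 8 of the 17 regulators were higher and 1 lower in limma, beside 17.9% and 15.7% of all genes, with a median of 0.90, or 0.55 without C26 replicate 3. Ppargc1a, the coactivator of mitochondrial biogenesis, was 18.3, 17.9 and 17.4 TPM in C26 and 4.63, 6.07 and 3.64 in Control muscle. It was higher in all C26 muscles alike, replicate 3 included (1.73 ± 0.18, adjusted p = 0.00293, limma). Its relative Ppargc1b was 0.73, 1.84 and 1.89 TPM against 3.54, 4.65 and 2.92, and was lower by -0.94 ± 0.25 (adjusted p = 0.0321, limma).

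Nrf1 was 22.8, 22.4 and 12.3 TPM in C26 and 6.48, 6.24 and 8.72 in Control muscle, higher by 1.27 ± 0.27 (adjusted p = 0.0158, limma). Gabpa, an ETS factor of respiratory chain genes, was 18.3, 15.2 and 15.9 TPM against 8.21, 9.76 and 7.26, higher by 0.90 ± 0.16 (adjusted p = 0.00968, limma). Ppard, a fatty acid receptor, was 30.4, 32.5 and 36.1 TPM against 13.6, 15.3 and 13.5, higher by 1.17 ± 0.14 (adjusted p = 0.00387, limma). Esrra and Tfam were not called. Esrra, the partner receptor of Ppargc1a, was 72.2, 54.0 and 106 TPM against 82.3, 113 and 86.7, with C26 replicate 3 within the controls. Tfam, which packs and transcribes mitochondrial DNA, was 23.4, 22.8 and 31.1 TPM against 24.4, 28.1 and 25.9.

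Of the 18 listed assembly factors of complex I, 1 was higher and 2 were lower, with a median of -0.20. The called share was 16.7%, beside 33.6% of all genes. Ndufaf5 was 20.3, 20.1 and 37.7 TPM in C26 and 59.8, 62.4 and 59.1 in Control muscle (-1.25 ± 0.26, adjusted p = 0.0147, limma). Ndufaf4 went the other way at 43.9, 32.8 and 30.5 TPM against 16.1, 17.2 and 15.1 (1.08 ± 0.17, adjusted p = 0.00792, limma). Tmem126a was the second lower gene, at -1.04. For complex II, Sdhaf4, which helps to join Sdha and Sdhb, was lower at -1.45, and Sdhaf2, which attaches the flavin to Sdha, higher at 0.49, the only calls among 4 genes. Of 6 listed factors of complex III, Uqcc3 (-0.71) and Uqcc2 (-0.53) were lower and 0 higher (33.3% called).

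Complex IV assembly had 3 higher and 4 lower genes of 24 (29.2%, beside 33.6% of all genes), with a median of -0.11. Coa4 was 83.3, 83.2 and 48.7 TPM in C26 and 16.4, 19.3 and 15.5 in Control muscle (1.97 ± 0.24, adjusted p = 0.00423, limma). Sco2, which delivers copper to the enzyme, was 43.6, 39.9 and 17.9 TPM against 6.68, 9.98 and 8.74 (1.80 ± 0.35, adjusted p = 0.0128, limma). In both genes C26 replicate 3 was nearest to the controls. Coa6, also a copper chaperone, was lower at 20.5, 20.5 and 22.9 TPM against 39.7, 47.9 and 41.0 (-0.97 ± 0.14, adjusted p = 0.00600, limma). Among 5 genes of complex V assembly and regulation, Atpif1, the inhibitor of ATP synthase, was lower at -0.58 and 0 were higher.

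Of 8 electron carriers and dehydrogenases that feed ubiquinone or complex IV, 4 were higher and 0 lower with all samples. The counts were 4 higher and 3 lower (Cycs, Gpd2 and Dhodh) without C26 replicate 3. Etfa, a subunit of the flavoprotein that takes electrons from fatty acid oxidation, was 526, 549 and 423 TPM in C26 and 178, 255 and 134 in Control muscle (1.44 ± 0.26, adjusted p = 0.0101, limma). Etfdh, which passes these electrons to ubiquinone, was 129, 112 and 144 TPM against 47.1, 78.4 and 37.2 (1.29 ± 0.28, adjusted p = 0.0173, limma). Prodh, the proline dehydrogenase, was higher by 0.88. For these genes every C26 muscle was above every control. Cytochrome c itself followed the subunits: Cycs was 165, 142 and 321 TPM in C26 and 274, 324 and 258 in Control muscle, at -0.53 with all samples (adjusted p = 0.224, limma) and -0.82 without C26 replicate 3.

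Coenzyme Q synthesis had 2 higher and 0 lower genes of 13 (15.4%, beside 33.6% of all genes). Coq8a, a kinase-like protein of the pathway, was 673, 520 and 900 TPM against 177, 405 and 177 (1.54 ± 0.38, adjusted p = 0.0241, limma), and Coq5, a methyltransferase, was also higher, at 161, 163 and 122 TPM against 66.9, 94.1 and 62.6. The largest value of the list, chosen after the values were seen, was that of Coq7, a hydroxylase of the pathway, at 14.1, 8.16 and 78.9 TPM against 98.6, 117 and 92.6. All C26 muscles lay below all controls, but Coq7 was not called (-2.21 ± 0.75, adjusted p = 0.0627, limma), and without C26 replicate 3 it was called lower, at -3.07 (adjusted p = 0.00164, limma). Without C26 replicate 3 there were 3 higher and 3 lower genes in this list, 9 higher and 2 lower among the regulators, 1 higher and 7 lower among complex I assembly factors, 0 higher and 4 lower among those of complex III, and 4 higher and 8 lower among those of complex IV. Of all genes 22.9% were higher and 17.3% lower in that fit.

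**Figure D5:**
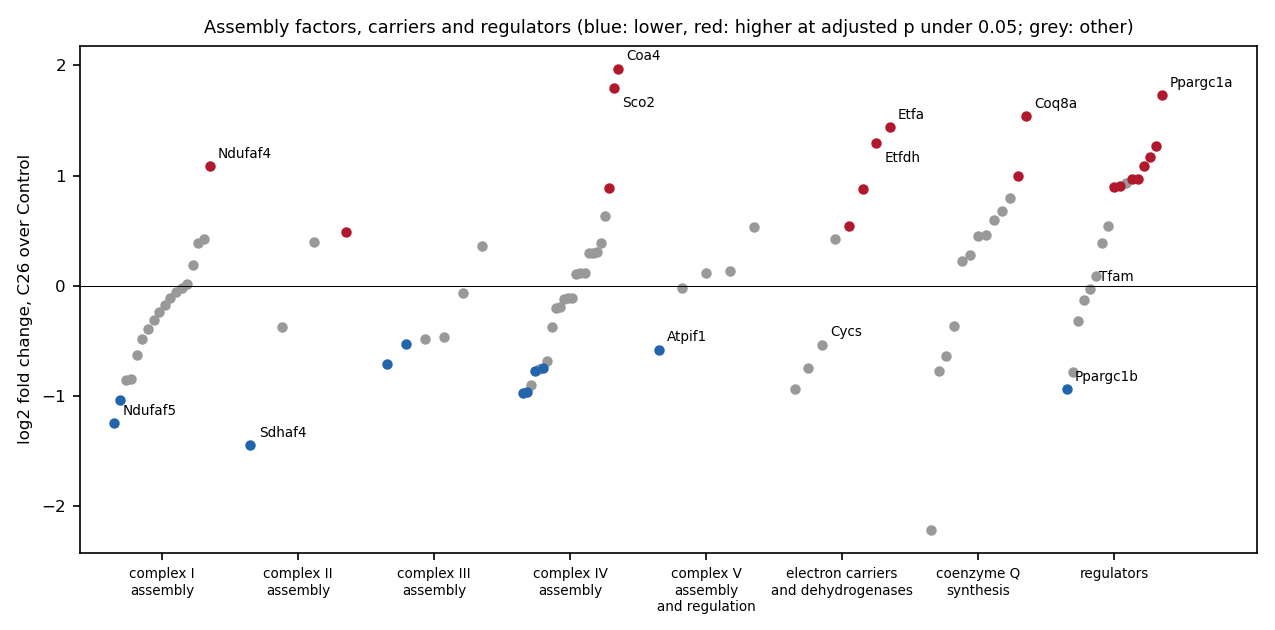
Log2 fold change (C26 over Control, y axis) of the listed assembly factors, electron carriers, coenzyme Q genes and regulators (x axis), 1 point per gene, red for higher and blue for lower at an adjusted p under 0.05 in limma. Ppargc1a (1.73), Coa4 (1.97) and Etfa (1.44) are among the highest, and Sdhaf4 (-1.45) is the lowest called gene.

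Outside complex I, log2 fold changes ran from -0.18 to 0.67 in complex II, from -0.61 to 0.30 in complex III, from -1.20 to 0.77 in complex IV and from -0.67 to 0.60 in complex V. Of the 50-base windows of Ndufb4, 37.0% recur in other genes, with Ndufb4c sharing the most, so some of its reads cannot be placed with certainty. No coding transcripts of Ndufb4b or Ndufb4c could be compared. Of 83 genes whose transcripts could be compared, 36 shared no such window, the median share was 1.88%, and Atp5l, at 84.8%, was alone above 50%. For Cox6a1 the share was 12.3%, and for Ndufv3, Ndufa4l2, Ndufc2 and Cox6b2 it was 0.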

How the data were processed

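Gastrocnemius RNA in 3 C26 and 3 control samples was sequenced after rRNA removal as single-end reads of 50 bases. The authors aligned the reads with bowtie2 and deposited FPKM estimated by RSEM. The methods name GRCm38.p5, while the submitters' processing notes list mm9, HISAT2 2.0.4, Bowtie2 2.2.5 and RSEM 1.2.12. FPKM have 2 decimals and are above 0 in all samples for all 13363 genes. Without read counts, the depth behind each sample is unknown. FPKM sums ranged from 531061 to 688300.

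Each sample's FPKM were divided by their sum and multiplied by 1000000 (TPM), then divided by TMM factors (the outer 30% of log ratios and 5% of levels were trimmed, factors from 0.914 to 1.10, recomputed where a sample was left out). Then log2(TPM + 1) was compared with limma 3.58.1 under R 4.3.3, and p-values were adjusted by Benjamini-Hochberg over all listed genes. Isoform ratios were compared by two-sided exact permutation tests. Entrez gene IDs gave symbols for 13327 genes and none for 36. Samples and replicates follow the labels, and the fit was tested on simulated data. Same-numbered samples did not deviate together (correlations -0.04, -0.09 and -0.12), so no pairing was used.

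The members and lists were chosen with earlier results of these data known. Sequences came from RefSeq (GRCm38.p6), and shared windows and coding lengths from GENCODE. Named were, per complex, up to 4 called genes in each direction whose groups did not overlap, the most abundant gene, all Sdh genes, isoform pairs, genes called against the majority of their complex, and, per other list, the 3 largest changes among called genes, with Cycs, Ppargc1a, Ppargc1b, Esrra, Nrf1, Gabpa and Tfam. Other genes were named after their values were seen. Alternatives were a pseudocount of 0.1, dropping genes with a mean under 1 TPM, no TMM, FPKM, quantiles, a replicate block, an intensity trend and each sample left out. Scaling without the 20 most abundant genes was added after seeing the data.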

Additional observations from a re-analysis of the deposited data

How the results depend on the processing

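The 3 higher and 4 lower subunit genes became 1 and 7 on FPKM, 1 and 11 under quantile normalization, and 1 and 8 without the 20 most abundant genes. Of the 7 genes, 5 remained called in each of these 3 settings. With a pseudocount of 0.1, 3 and 3 were called, without Ndufc2. With the replicate block, for which the numbers give no pairing, 0 were higher and 1 lower (Cox6a1), and 2978 genes were called in all. Leaving out 1 sample gave 0 to 4 higher and 1 to 37 lower subunit genes, the 37 without C26 replicate 3, and Cox6a1 was called in each fit. Without C26 replicate 1 there were 0 higher and 2 lower, without C26 replicate 2 0 and 1, without Control replicate 1 0 and 1, and without Control replicate 2 4 and 1. Over all genes 4488 were called, but 1727 without C26 replicate 1, 2379 without C26 replicate 2 and 1816 without Control replicate 1. The medians of complexes I, IV and V stayed negative in all settings run. The difference in log2 Cox4i2/Cox4i1 moved to 0.022 under quantile normalization, and that in Cox6b2/Cox6b1 to 1.56 with a pseudocount of 0.1. The causes were not tested. With 3 samples a group, exact tests cannot pass 0.05, and without counts the error of low genes such as Cox6b2 is unknown.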

Other observations

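Shorter subunit genes had lower fold changes. The 23 subunit genes with a coding length under 300 bases had a median log2 fold change of -0.37, and 20 of them were negative, the 39 from 300 to under 600 bases had -0.23, and the 21 of 600 bases or more had 0.05. These medians were -0.64, -0.40 and -0.06 without C26 replicate 3, so that of the longest genes turned negative. Among the other listed genes the medians with all samples were -0.20, -0.14 and -0.06, and among those with a mean of at least 100 TPM they were -0.03, 0.12 and 0.51. Spearman's rho of coding length and log2 fold change was 0.43 over the 83 subunit genes with a length (97.6% of 85) and 0.11 over 13088 other genes, as a description across genes that share the same 6 libraries. It was 0.40 and 0.10 without C26 replicate 3. The part of length in the differences between complexes, and between the core and other genes of complex I, was not tested.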
